A study of Mus musculus with 6 samples.

Results

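Genes of cholesterol synthesis, uptake and storage were followed in bulk RNA sequencing of sorted mouse microglia, the resident macrophages of the brain. The set holds 33 genes, chosen by function from the 49585 genes listed in the count files: 18 enzymes of the synthesis pathway, 5 SREBP regulators, 3 sterol transport proteins, 3 genes of ester storage and release, the oxysterol enzyme Ch25h, and 3 genes of fatty acid synthesis and desaturation. The libraries came from male mice aged 3 months: 3 wild-type (WT) libraries and 3 labelled IRF8KO, a knockout of the transcription factor IRF8, each from its own brain. Cells were taken from the brain without enzymes, sorted by flow cytometry into TRIzol, and sequenced as amplified cDNA. The labels list no treatment and give neither the allele, the strain nor the cells that carry the deletion, and IRF8KO below means the libraries with that label. Because the RNA comes from pooled cells, fewer cells of a type and less RNA per cell cannot be told apart.

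Cholesterol is built from acetyl-CoA through mevalonate, squalene and lanosterol. The transcription factors SREBP1 and SREBP2, encoded by Srebf1 and Srebf2, drive the genes of this route and of fatty acid synthesis; SCAP escorts them out of the endoplasmic reticulum when sterols are low, and the INSIG proteins hold the pair back when sterols are high. Microglia also take cholesterol in with lipoproteins and debris, free it in the lysosome, store it as esters in droplets and export it with apolipoproteins. Ch25h makes an oxysterol that restrains SREBP processing and activates the LXR receptors, and it is known as a gene induced by interferon and by microbial signals in macrophages.

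Library depth was 3658917 to 11098363 gene counts, and WT replicate 3 stood apart from WT replicates 1 and 2 (Pearson correlations of log2 CPM, counts scaled to 1000000 per library, of 0.892 and 0.897 across genes, against 0.969 between the latter). Irf8 itself was counted in every library, at 795, 851 and 1403 CPM (with TMM scaling) in WT and 743, 650 and 850 in IRF8KO, and was not called (log2 fold change −0.44, SE 0.33; adjusted p = 0.368 by the Benjamini-Hochberg, or BH, method, from the quasi-likelihood, or QL, F test of edgeR). With scaling by library size alone Irf8 was called lower (−0.90, adjusted p = 0.0076). Counts summed over all exons cannot show a deleted one, so every direction rests on the labels. Apoe took 25.5% to 33.7% of the gene counts in the IRF8KO libraries and 0.154% to 0.324% in the WT libraries. The 33 cholesterol genes together took 0.155% to 0.168% of the gene counts in all 6 libraries, a total that includes Apoe. With TMM scaling their sum was 1145, 1190 and 1835 CPM in WT and 2251, 1618 and 1993 CPM in IRF8KO.

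Few of the cholesterol genes differed between the genotypes. Ch25h, Pmvk, Sqle and Srebf2 rose in IRF8KO and Insig1 fell, which is 5 of the 30 members that passed the filter on low counts, or 4 higher and 1 lower. Over all 11041 genes tested, 19.1% were called at an adjusted p under 0.05 (edgeR QL F test, BH), 9.64% higher and 9.46% lower, so the members' count lay near the background. Of the 5, Pmvk and Srebf2 passed the filter, which asks for 3 libraries above a minimum, through either group. Ch25h and Sqle passed it through the IRF8KO libraries alone and Insig1 through the WT libraries alone, the groups where they were high, so their being tested already depended on a difference. At an unadjusted p under 0.05 stood 33.7% of all tested genes. The 3 IRF8KO values lay outside the WT range for 11 of the 30 tested members, 9 above it and 2 below it. Over all 11041 tested genes they did so for 37.9%, 2203 genes above and 1981 below. The median log2 fold change of the tested members was 0.28, beside −0.11 for all tested genes. Above 0 were 19 of 30 members and 5054 of all 11041 tested genes. Scaling by library size alone moved these medians to −0.17 and −0.61 and left 12 of 30 members above 0, and the share of calls that were higher over all genes went from 50.5% to 25.4%. The count of called members was 2 without WT replicate 1 and 2 without WT replicate 2, where 11.4% and 10.4% of all tested genes were called. It was 10 without WT replicate 3, beside 33.5% of all tested genes. It was 3, 4 and 1 without IRF8KO replicates 1, 2 and 3, beside 9.64%, 17.6% and 7.95%. With all libraries it was 5 with DESeq2 size factors (18.1% of all tested genes called), 4 with library size alone (23.2%), 5 with TMM computed without Apoe (18.4%), 6 without the filter (12.5%), 3 with at least 10 counts in every library (23.7%) and 8 with DESeq2 (24.4%). It was 6 with limma-voom (20.7%), 6 and 5 with the stranded count columns (21.2% and 20.4%), 9 with an offset for GC content and length (23.7%) and 5 with a replicate block (21.3%).

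**Figure D1:**
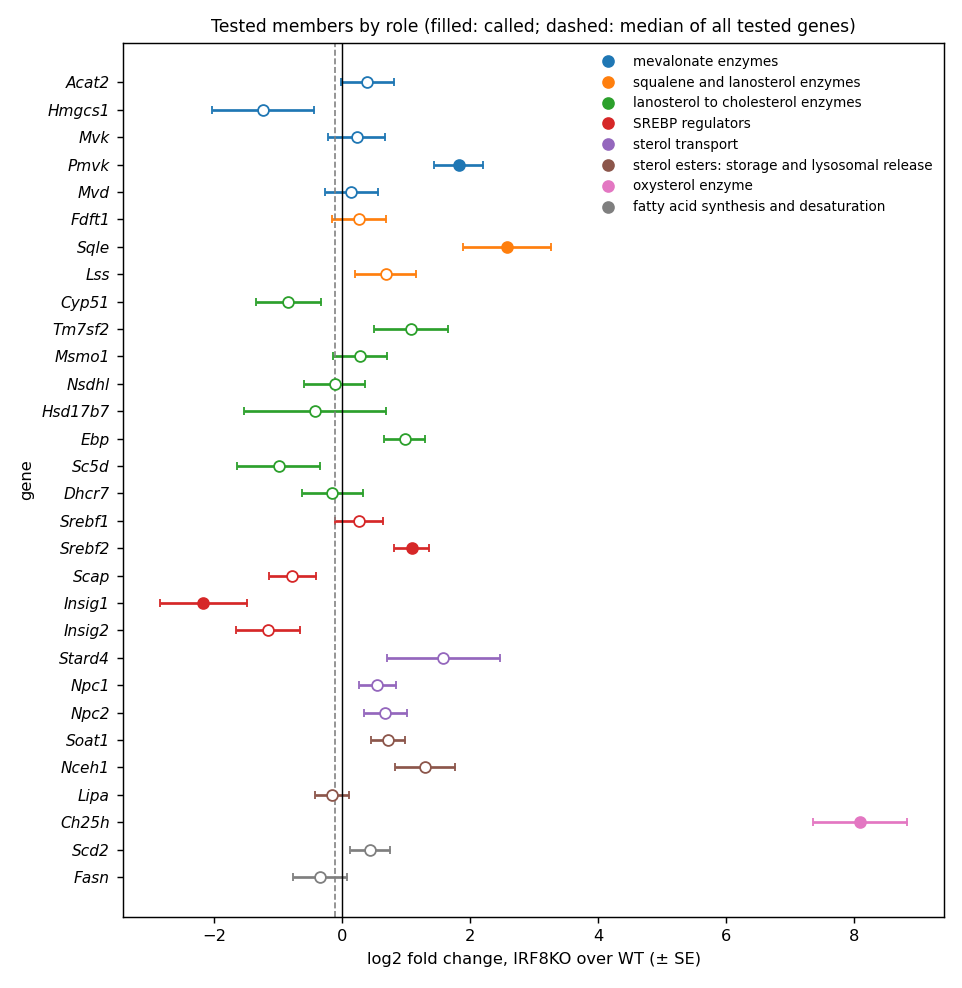
Log2 fold change of IRF8KO over WT (x axis, ± SE) for the 30 tested members (y axis), coloured by role; filled points were called and the dashed line marks the median of all tested genes, −0.11. Ch25h lies at 8.09, far to the right of the other members, and Insig1 lies lowest at −2.16.

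The promoter windows of 4 of the 5 called members and of Hmgcs1 are printed to show the letters behind the motif counts that follow. They are RefSeq windows of 300 bases on GRCm38.p6, 250 before the start site and 50 after it, read 5′ to 3′ on the gene's strand, with matches to any of the motifs searched in capitals. The windows are chr19:34475099-34475398 (minus strand) for Ch25h, chr15:82147019-82147318 (plus) for Srebf2, chr3:89454291-89454590 (plus) for Pmvk, chr5:28071162-28071461 (plus) for Insig1 and chr13:119690101-119690400 (plus) for Hmgcs1. Sqle has no entry in the table, and neither have Fdps, Fdft1, Stard4, Npc1, Scd1 and Scd2.
Ch25h: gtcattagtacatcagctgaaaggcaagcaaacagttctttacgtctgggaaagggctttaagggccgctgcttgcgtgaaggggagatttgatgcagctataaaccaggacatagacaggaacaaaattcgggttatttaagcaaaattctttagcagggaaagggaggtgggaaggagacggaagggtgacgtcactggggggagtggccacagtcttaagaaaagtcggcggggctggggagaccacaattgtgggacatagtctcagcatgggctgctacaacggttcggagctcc
Srebf2: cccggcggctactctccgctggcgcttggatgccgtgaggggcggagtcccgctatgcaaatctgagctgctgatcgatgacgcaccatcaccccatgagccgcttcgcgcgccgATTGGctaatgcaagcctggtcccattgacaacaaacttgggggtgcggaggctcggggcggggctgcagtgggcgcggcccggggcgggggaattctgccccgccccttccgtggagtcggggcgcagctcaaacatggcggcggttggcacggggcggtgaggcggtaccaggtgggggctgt
Pmvk: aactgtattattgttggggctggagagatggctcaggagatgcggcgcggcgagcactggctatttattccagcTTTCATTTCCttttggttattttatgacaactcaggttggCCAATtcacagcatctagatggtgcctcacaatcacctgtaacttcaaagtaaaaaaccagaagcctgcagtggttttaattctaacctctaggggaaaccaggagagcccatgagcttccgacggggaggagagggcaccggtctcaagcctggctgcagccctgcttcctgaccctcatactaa
Insig1: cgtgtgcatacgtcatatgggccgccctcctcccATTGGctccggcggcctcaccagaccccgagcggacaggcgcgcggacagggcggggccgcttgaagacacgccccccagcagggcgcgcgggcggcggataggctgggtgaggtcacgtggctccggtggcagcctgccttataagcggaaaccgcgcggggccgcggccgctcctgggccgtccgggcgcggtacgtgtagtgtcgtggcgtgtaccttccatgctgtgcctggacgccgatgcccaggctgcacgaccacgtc
Hmgcs1: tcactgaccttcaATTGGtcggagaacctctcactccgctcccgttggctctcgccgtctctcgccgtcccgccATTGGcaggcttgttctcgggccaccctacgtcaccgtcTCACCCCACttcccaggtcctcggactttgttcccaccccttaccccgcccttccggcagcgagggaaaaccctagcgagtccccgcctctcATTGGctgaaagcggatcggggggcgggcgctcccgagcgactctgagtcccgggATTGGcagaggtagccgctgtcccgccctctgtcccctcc

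The motifs were searched on both strands of all 32851 windows and of those of the 26 members with an entry. CCAAT, the letters bound by NF-Y, a factor that acts beside SREBPs on sterol genes, stood in a window of 23 of the 26 members (88.5%), against 41.1% of all 27025 genes with a window and 42.6% of the tested genes with one. Ch25h, Acat2 and Scap were the members without it. The sterol response element core TCACNCCAC stood in the window of 1 member, Hmgcs1, and in 1.24% of all windows. The interferon-stimulated response element, a pair of GAAA runs with any 2 bases between them, was found in the window of Ebp and in 3.44% of all windows. The composite site for ETS and IRF factors, GGAA and GAAA with any 2 bases between them, was found in windows of Pmvk and in 2.72% of all windows. These motifs can overlap each other through GAAA. TCACGTGA, an E-box of MiT/TFE factors, stood in no member's window and in 0.974% of all windows. Counted by gene, 1.44% of all 27025 genes with a window had the sterol core and 3.99% the interferon element. The composite site was found for 3.16% of them and the E-box for 1.12%. None of the 5 motifs stood in the Ch25h window. These are matches of letters in a short window, described without a test, and no binding was measured here.

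Levels ranged over several orders of magnitude, compared here as CPM per kb of annotated exonic length. Npc2, a lysosomal cholesterol-binding protein, was highest in both groups, at 90.9 ± 29.2 CPM per kb in WT and 146 ± 33.1 in IRF8KO (SD, n = 3), followed by Ebp, a sterol isomerase, at 47.1 ± 19.0 and 93.0 ± 13.1, and by Srebf1 at 27.1 ± 15.4 and 32.7 ± 6.56. In WT the library ranges of Npc2 and Ebp overlapped, as did those of Ebp and Srebf1, although this order held within each WT library. Ch25h was near the limit of detection in WT, at 0.0510 ± 0.0884, and was among the higher members in IRF8KO, at 23.8 ± 8.71 CPM per kb, beside Pmvk at 24.0 ± 7.996. Idi1, Fdps and Scd1 did not pass the filter on low counts. Exonic length sums all annotated transcripts and can exceed that of the transcript in use.

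**Figure D2:**
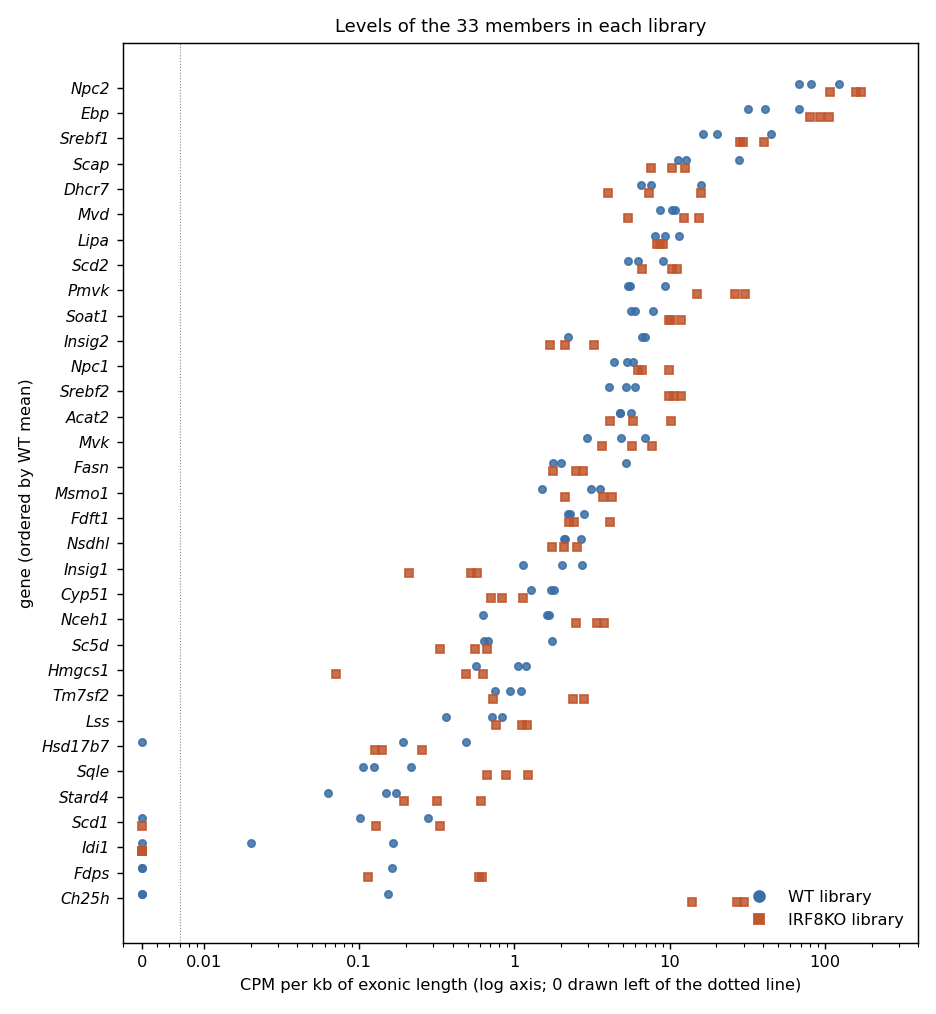
CPM per kb of exonic length (x axis, log scale, with 0 drawn left of the dotted line) of the 33 members in each library (WT circles, IRF8KO squares), ordered by the WT mean. Npc2 and Ebp head the list, and Ch25h goes from 0 in WT replicates 1 and 3 to a place among the higher members in the IRF8KO libraries.

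Ch25h showed the largest difference of any member. It encodes the enzyme that hydroxylates cholesterol to an oxysterol (ENSMUSG00000050370, chromosome 19, 34473778 to 34475164, minus strand). WT replicates 1 to 3 held 0, 3 and 0 of its counts and IRF8KO replicates 1 to 3 held 120, 468 and 348, or 19.3, 42.0 and 37.7 CPM in IRF8KO. The groups were far apart, with IRF8KO replicate 1 the lowest of its group. The ratio of the scaled counts was 311, with an exact 95% counting interval of 106 to 1511 that covers counting error only. The fitted log2 fold change of 8.09 depends on the handling of the zeros (edgeR QL F test, BH-adjusted p = 2.7e-05). The alternative that asked for at least 10 counts in every library left the gene out. Exons of the gene share 11.5% of their length with the annotated gene Gm26902, and counting ignored strand.

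**Figure D3:**
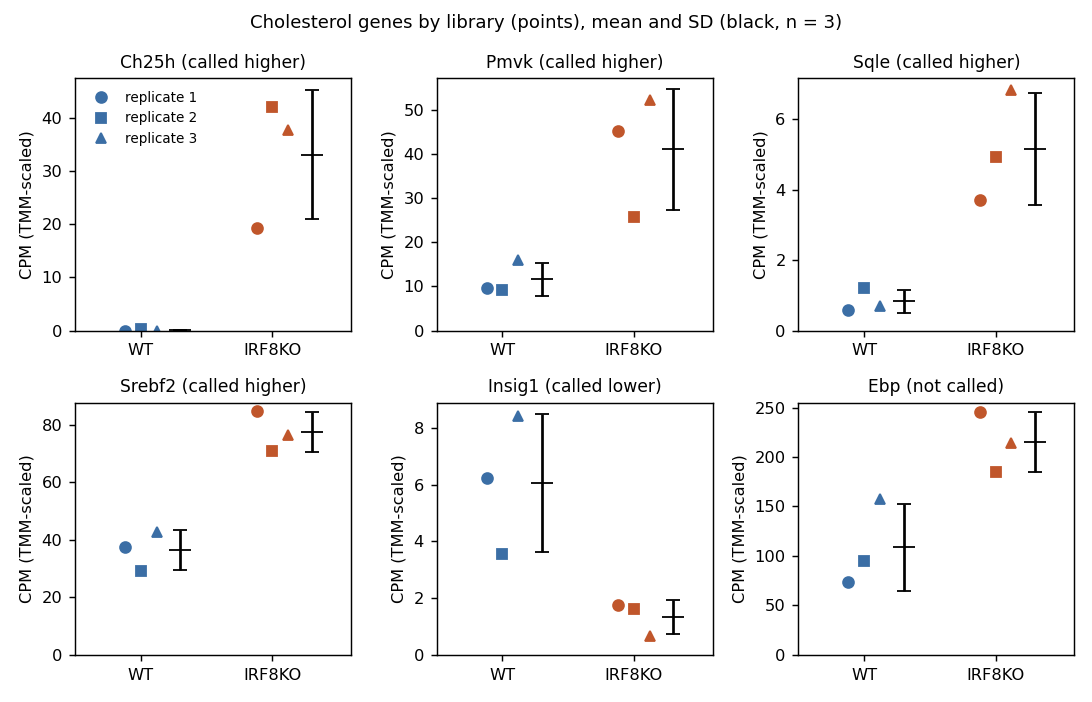
TMM-scaled CPM (y axis, from 0) of the 5 called members and of Ebp in each library (x axis: WT and IRF8KO; marker shape gives the replicate), with the mean and SD in black (n = 3). The IRF8KO points lie above all WT points for Ch25h, Pmvk, Sqle, Srebf2 and Ebp, and below them for Insig1.

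Of the 7 enzymes that lead to farnesyl diphosphate, 5 were tested and 1 was called. Pmvk, the kinase that adds the second phosphate to mevalonate (ENSMUSG00000027952, chromosome 3, 89454541 to 89469013), had 9.53, 9.28 and 15.99 CPM in WT and 45.3, 25.8 and 52.2 CPM in IRF8KO. All IRF8KO values exceeded the WT values, and the log2 fold change was 1.82 (SE 0.38; edgeR QL F test, BH-adjusted p = 0.00626). Without IRF8KO replicate 3, the highest library, it was 1.62 (edgeR QL F test, BH-adjusted p = 0.0542). The other kinase, Mvk, and the decarboxylase Mvd had log2 fold changes of 0.23 and 0.15, with adjusted p of 0.757 and 0.833 (edgeR QL F test, BH), and their groups overlapped. Acat2, the cytosolic thiolase, had 12.3, 12.1 and 14.3 CPM in WT and 25.8, 14.7 and 10.5 CPM in IRF8KO, with the high value in IRF8KO replicate 1. Hmgcs1, which makes the precursor of mevalonate, had 5.45, 4.81 and 2.62 CPM in WT and 2.25, 2.87 and 0.325 CPM in IRF8KO. Hmgcs1 was not called (log2 fold change −1.23, SE 0.79; adjusted p = 0.298 in the same test), and WT replicate 3 fell within the IRF8KO range. Scaling by library size alone turned the signs of Acat2, Mvk and Mvd.

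Of the 2 untested enzymes of this stretch, Idi1 was near the limit of detection in both groups and Fdps in WT. Idi1, an isomerase, had 3, 1 and 0 counts in WT and 0 in each IRF8KO library, which allows up to 3 counts, or 0.482, 0.269 and 0.325 CPM in IRF8KO replicates 1 to 3. Fdps, which makes farnesyl diphosphate, had 0, 0 and 5 counts in WT and 3, 29 and 23 in IRF8KO. It was tested in 5 alternatives, 1 of them the fit without a filter, and was called in 1, without WT replicate 3 (edgeR QL F test, BH-adjusted p = 0.0158). For Fdps, 26.7% of the exonic length is shared with the annotated gene Gm43738. Reads with more than 1 mapped place were not counted, so the levels of Idi1 and Acat2, which have related genes in the annotation (Idi2 and Acat3), are uncertain.

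Among the 3 enzymes that make and close squalene, Sqle rose. Sqle is squalene epoxidase, a rate-limiting step of the later pathway (ENSMUSG00000022351, chromosome 15, 59315077 to 59331192). It had 3, 17 and 5 counts in WT and 23, 55 and 63 in IRF8KO, or 0.584, 1.20 and 0.689 against 3.69, 4.94 and 6.83 CPM. No value overlapped, although all lay at low depth, and 1 WT library of 3 reached the minimum of the filter. The log2 fold change was 2.58 (SE 0.69; edgeR QL F test, BH-adjusted p = 0.0227). The call was lost without IRF8KO replicate 3, WT replicate 1 or WT replicate 2, with BH-adjusted p = 0.121, 0.0966 and 0.0529 from the QL F test, and with scaling by library size alone, 0.0689. Fdft1, squalene synthase, had 9.34, 11.8 and 9.65 CPM in WT and 17.3, 9.51 and 10.3 CPM in IRF8KO and was not called. Its exons share 18.3% of their length with the annotated gene Ctsb, and its log2 fold change of 0.26 changed to −0.32 and −0.41 with the 2 stranded count columns. Lss, lanosterol synthase, had 3.89, 8.92 and 7.72 CPM in WT and 8.19, 13.01 and 12.04 CPM in IRF8KO, with overlapping groups and a log2 fold change of 0.68 (SE 0.47).

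None of the 8 enzymes from lanosterol to cholesterol was called, and 3 of 8 had log2 fold changes above 0. Ebp was nearest to the threshold, with 73.9, 94.5 and 158 CPM in WT and 246, 185 and 214 CPM in IRF8KO. The groups did not overlap, with WT replicate 3 the nearest to IRF8KO. Ebp had a log2 fold change of 0.98 (SE 0.32; edgeR QL F test, BH-adjusted p = 0.0532) and was called in 8 of 17 alternatives, DESeq2 and limma-voom among them, with an adjusted p of 8.3e-04 and a log2 fold change of 1.38 without WT replicate 3. Cyp51, the lanosterol demethylase, went the other way without overlap, at 7.59, 8.001 and 5.65 CPM in WT and 3.69, 5.03 and 3.15 CPM in IRF8KO, and was not called (log2 fold change −0.84, SE 0.51). Dhcr7, the reductase of the last step, varied as much within groups as between them: 37.9, 44.3 and 92.6 CPM in WT and 92.3, 23.2 and 42.9 CPM in IRF8KO. For Dhcr7 the log2 fold change was −0.15, and 0.35 without WT replicate 3. Tm7sf2, a sterol reductase, had 3.31, 4.11 and 4.82 CPM in WT and 12.4, 3.23 and 10.5 CPM in IRF8KO, where IRF8KO replicate 2 lay below every WT library. Msmo1, Nsdhl, Hsd17b7 and Sc5d, which remove methyl groups or alter the sterol rings, had log2 fold changes of 0.29, −0.11, −0.42 and −0.99 with overlapping groups and adjusted p between 0.310 and 0.896 (edgeR QL F test, BH). The summed level of the 18 synthesis enzymes was 227, 262 and 371 CPM in WT and 531, 362 and 417 CPM in IRF8KO, so IRF8KO replicate 2 lay below WT replicate 3.

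The regulators of SREBP moved in different directions. Srebf2, which encodes the SREBP that chiefly serves cholesterol genes (ENSMUSG00000022463, chromosome 15, 82147181 to 82205379), had 37.5, 29.1 and 42.9 CPM in WT and 84.9, 71.1 and 76.5 CPM in IRF8KO. The ranges were well apart, and the log2 fold change was 1.09 (SE 0.28; edgeR QL F test, BH-adjusted p = 0.0171). The call was lost without WT replicate 1, WT replicate 2, IRF8KO replicate 1 or IRF8KO replicate 3, with adjusted p of 0.0572, 0.107, 0.0782 and 0.0728, while the log2 fold change stayed between 0.94 and 1.26 over the fits that left out 1 library (same test). Scaling by library size alone gave 0.59 and an adjusted p of 0.0909. Insig1, whose protein holds SCAP in the endoplasmic reticulum and which is itself a known SREBP target (ENSMUSG00000045294, chromosome 5, 28071363 to 28078662), fell. Its counts were 32, 50 and 61 in WT and 11, 18 and 6 in IRF8KO, or 6.23, 3.54 and 8.41 against 1.77, 1.62 and 0.651 CPM, without overlap. The log2 fold change was −2.16 (SE 0.68; adjusted p = 0.0440), and the call was lost in 11 of 16 alternatives, among them each of the 6 fits that left out 1 library (adjusted p of 0.0618 to 0.161, edgeR QL F test, BH).

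The other 3 regulators were not called. Insig2 had 23.0, 24.1 and 7.72 CPM in WT and 7.38, 11.3 and 5.86 CPM in IRF8KO, where WT replicate 3 fell inside the IRF8KO range. For Insig2 the log2 fold change was −1.16 (SE 0.50; edgeR QL F test, BH-adjusted p = 0.125), and −1.47 with an adjusted p of 0.0187 without that library. Scap had 84.6, 95.2 and 208 CPM in WT and 93.1, 56.4 and 77.3 CPM in IRF8KO. Here WT replicate 3 was the high value, and the log2 fold change of −0.77 became −0.23 without it. Scap was called lower with library size alone (−1.22, adjusted p = 0.00692) and with the offset for GC content and length (−0.66, adjusted p = 0.0400; edgeR QL F test, BH). Srebf1, which encodes the SREBP that chiefly serves fatty acid genes, had 114, 92.6 and 252 CPM in WT and 227, 159 and 167 CPM in IRF8KO. Its log2 fold change of 0.27 (adjusted p = 0.654) became 0.87 with an adjusted p of 0.0103 without WT replicate 3 (same test).

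None of the 6 genes of sterol transport, ester storage and ester release was called. Of them, 5 had log2 fold changes above 0 and 4 had IRF8KO values that all exceeded the WT values (Npc1, Stard4, Soat1 and Nceh1), beside 5054 and 2203 of all 11041 tested genes. Soat1, which esterifies cholesterol for storage, had 76.8, 58.2 and 54.9 CPM in WT and 115, 97.6 and 99.995 CPM in IRF8KO. Its log2 fold change was 0.72 (SE 0.27; edgeR QL F test, BH-adjusted p = 0.0797), 0.17 with scaling by library size alone, and it was called in 4 of 17 alternatives: DESeq2, the first stranded column, the offset for GC content and length, and without WT replicate 3 (0.67, adjusted p = 0.0314). Nceh1, a hydrolase of cholesterol esters outside the lysosome, had 8.75, 8.57 and 3.31 CPM in WT and 13.2, 19.9 and 17.8 CPM in IRF8KO. Its log2 fold change of 1.30 (SE 0.47) had an adjusted p of 0.0717 (edgeR QL F test, BH). Nceh1 was called in 4 of 17 alternatives: DESeq2, limma-voom, the second stranded column, and the offset for GC content and length. Lipa, the acid lipase that frees cholesterol from esters in the lysosome, had 63.6, 78.3 and 54.9 CPM in WT and 61.6, 58.4 and 56.1 CPM in IRF8KO, with overlapping groups, and its log2 fold change of −0.16 (SE 0.27) went to 0.63 with the offset for GC content and length and to −0.70 with scaling by library size alone.

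Npc1, the membrane protein that passes cholesterol out of the lysosome, had 60.3, 49.8 and 66.0 CPM in WT and 74.8, 70.9 and 112 CPM in IRF8KO. The high value belonged to IRF8KO replicate 3, and the log2 fold change was 0.55 (SE 0.29; edgeR QL F test, BH-adjusted p = 0.200). Scaling by library size alone lowered it to 0.055, and that of Npc2 to 0.20. Npc2, which hands cholesterol to NPC1, had 370, 439 and 673 CPM in WT and 929, 588 and 859 CPM in IRF8KO. WT replicate 3 exceeded IRF8KO replicate 2, and the log2 fold change of 0.68 (adjusted p = 0.175) became 0.99 with an adjusted p of 0.00617 without WT replicate 3 (same test). Stard4, a cytosolic sterol carrier, had 5, 5 and 6 counts in WT and 11, 38 and 10 in IRF8KO and was not called (log2 fold change 1.58, SE 0.88).

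Neither tested enzyme of fatty acid synthesis and desaturation was called. Scd2, the desaturase isoform of the brain, had 49.4, 29.4 and 34.2 CPM in WT and 60.5, 56.4 and 36.0 CPM in IRF8KO, and Fasn, fatty acid synthase, had 21.8, 19.4 and 57.2 CPM in WT and 30.5, 19.5 and 27.3 CPM in IRF8KO. The log2 fold changes were 0.44 for Scd2 (SE 0.32) and −0.35 for Fasn (SE 0.42; edgeR QL F test, BH-adjusted p of 0.361 and 0.602). Without WT replicate 3, the high WT value of Fasn, its log2 fold change was 0.35. Scd1, the other desaturase, was near the limit of detection, with 7, 7 and 0 counts in WT and 0, 7 and 15 in IRF8KO. Scd1 and Scd2 have related genes (Scd3 and Scd4) in the annotation, and reads shared between copies were not counted.

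Libraries of both groups differed along the GC content of the members, WT replicate 3 the more. Of the 12 tested members with at least 50% GC, 11 were higher in WT replicate 3 than in the mean of WT replicates 1 and 2, with a median log2 difference of 0.80. Of the 18 with less, 12 were lower, with a median of −0.32. The Spearman correlation between GC content and that difference was 0.727 over the 30 tested members and 0.615 over 11034 tested genes; the genes share the same libraries, and no p is given. Fasn, Srebf1, Scap and Dhcr7 were the members raised most, by 1.47, 1.30, 1.21 and 1.17, and Hsd17b7 (−2.99), Insig2 (−1.58) and Nceh1 (−1.33) were the lowest. IRF8KO replicate 2 departed from IRF8KO replicates 1 and 3 in the opposite sense, with a Spearman correlation of −0.542 over the members and −0.435 over all genes, and Tm7sf2 (−1.75) and Dhcr7 (−1.43) were its lowest members. Without WT replicate 3, 33.5% of all tested genes were called, and 10 of 32 tested members. Those 10 were Ch25h, Ebp, Fdps, Npc2, Pmvk, Soat1, Sqle, Srebf1 and Srebf2, higher, and Insig2, lower, and 4 of them were among the 5 called with all libraries. The labels give no batch, so no fit within a batch could be made.

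**Figure D4:**
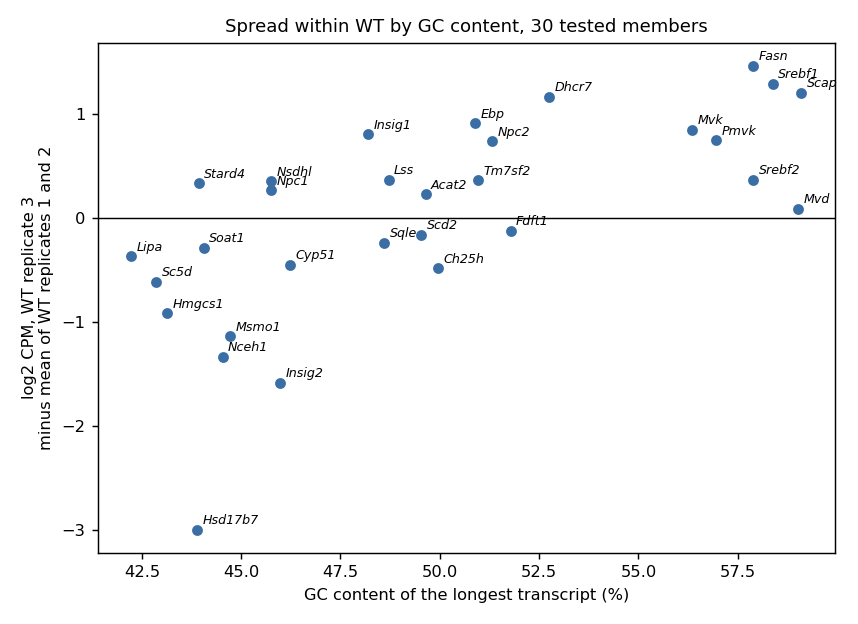
GC content of the longest annotated transcript (x axis, percent) against the log2 CPM difference between WT replicate 3 and the mean of WT replicates 1 and 2 (y axis) for the 30 tested members, 1 point per gene. Members with at least 50% GC lie above 0 in 11 of 12 cases.

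Other genes of lipid handling were read from lists drawn up by function. In the lipid droplet list, Plin2 and G0s2, a lipid droplet coat protein and an inhibitor of the droplet lipase, rose: Plin2 had 72.2, 76.4 and 83.8 CPM in WT and 467, 300 and 396 CPM in IRF8KO, and G0s2 had 0.584, 0.496 and 2.48 against 79.9, 62.5 and 82.6 CPM. Mgll and Lipe, lipases of monoacylglycerols and of stored esters, fell, Mgll from 72.4, 76.5 and 103 CPM to 23.1, 17.3 and 10.7 CPM. The log2 fold changes of Plin2, G0s2, Mgll and Lipe were 2.32, 6.02, −2.31 and −1.31, with adjusted p between 2.7e-05 and 0.00927 (edgeR QL F test, BH). The lipid droplet list had 4 of 11 tested genes higher, 2 lower and a median log2 fold change of −0.12, beside 9.64%, 9.46% and −0.11 for all tested genes, and G0s2 passed the filter through the IRF8KO libraries alone. The call of Lipe was lost without IRF8KO replicate 1 or IRF8KO replicate 3, with adjusted p of 0.0505 and 0.0662.

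The fatty acid synthesis list had 1 of 10 tested genes higher and 1 lower, near the 9.64% and 9.46% of all tested genes. Acaca, the carboxylase that commits acetyl-CoA to fatty acids, had 0.778, 1.35 and 1.24 CPM in WT and 35.8, 37.9 and 44.9 CPM in IRF8KO. The log2 fold change of 5.07 (SE 0.41) had an adjusted p of 1.2e-05 (edgeR QL F test, BH), while Fasn, the next enzyme, was not called. Fads1, a desaturase of polyunsaturated fatty acids, fell from 119, 138 and 170 CPM to 66.0, 49.99 and 38.1 CPM, a log2 fold change of −1.47 (adjusted p = 0.00555, and 0.0564 without IRF8KO replicate 3, same test).

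**Figure D5:**
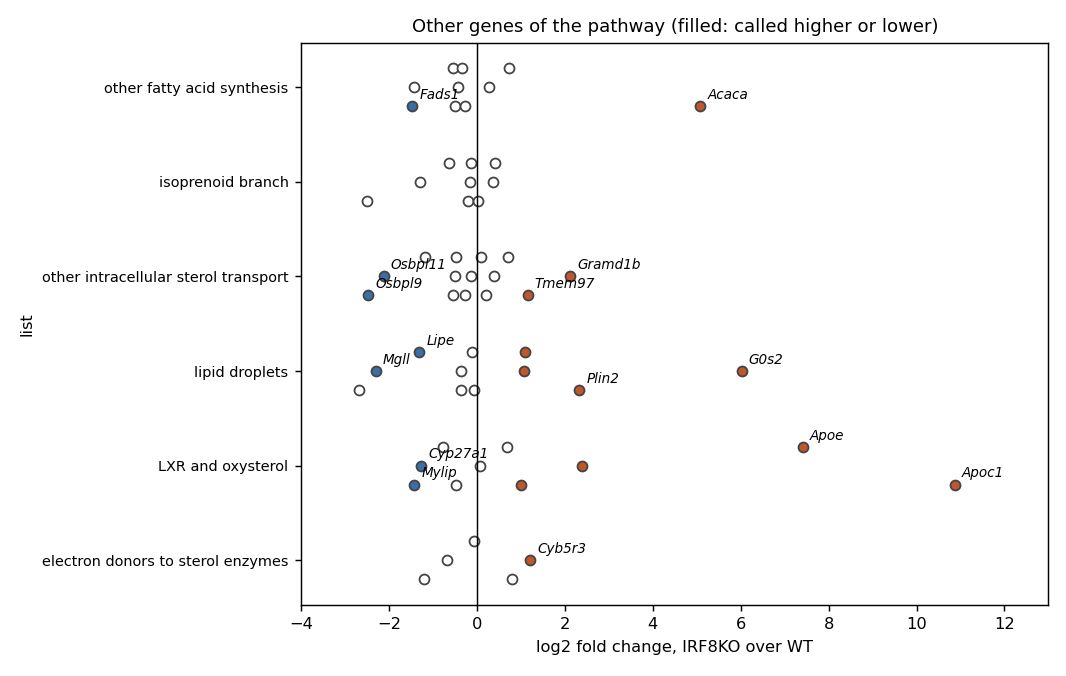
Log2 fold change of IRF8KO over WT (x axis) of the tested genes in 6 lists of lipid handling (y axis), 1 point per gene, filled where called. Acaca (5.07), G0s2 (6.02), Apoe (7.41) and Apoc1 (10.87) lie farthest to the right.

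In the list of other intracellular sterol transport, 2 of 14 tested genes rose and 2 fell, beside 9.64% and 9.46% of all tested genes. Gramd1b, a carrier from the plasma membrane to the endoplasmic reticulum, and Tmem97, which binds NPC1, had log2 fold changes of 2.11 and 1.15, and the oxysterol-binding relatives Osbpl11 and Osbpl9 had −2.13 and −2.47 (edgeR QL F test, BH-adjusted p between 0.00111 and 0.0438). Osbpl9 passed the filter through the WT libraries alone and lost its call without IRF8KO replicate 3 (adjusted p = 0.0548), and Tmem97 without WT replicate 1, WT replicate 2, IRF8KO replicate 1 or IRF8KO replicate 3 (adjusted p of 0.147 to 0.165). In the LXR and oxysterol list, 4 of 10 tested genes rose and 2 fell, against the same shares of all tested genes; 2 of the 4, Apoc1 and Nr1h3, passed the filter through the IRF8KO libraries alone. Apoe and Apoc1, apolipoproteins that accept exported lipid, had log2 fold changes of 7.41 and 10.87, whereas Mylip, an LXR-induced ligase, and Cyp27a1, a mitochondrial oxysterol enzyme, had −1.43 and −1.27 (adjusted p between 1.1e-06 and 0.00718 for these 4 genes, edgeR QL F test, BH).

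Marker levels of other cells are given by list, beside 9.64% of all tested genes called higher and 9.46% lower. The summed level of the 10 border-associated macrophage markers was 612 to 835 CPM in WT and 3819 to 5036 CPM in IRF8KO, and Lyve1 had 0 counts in every library. Of these markers 8 were tested and called higher. Mrc1, Pf4, Stab1, Cbr2 and Siglec1 passed the filter through either group, with log2 fold changes from 1.49 (Stab1) to 9.97 (Pf4). The other 3 (Cd163, Ms4a7 and F13a1) passed it through IRF8KO alone, so their calls are no support for a difference. The same limit holds for 3 of the 5 astrocyte markers called higher (Gfap, Slc1a2 and S100b; 1 more of the 8 tested was lower) and for each of the 3 neuron markers called higher of 6 tested (Rbfox3, Syt1 and Snhg11). Summed levels were 192 to 224 CPM in WT and 171 to 279 CPM in IRF8KO for the astrocyte list and 1.20 to 14.2 against 33.5 to 54.6 CPM for the neuron list. In the astrocyte sum Slc1a3 held 191, 180 and 84.4 CPM in WT and 7.86, 15.7 and 2.71 CPM in IRF8KO, while the other 7 tested astrocyte markers were higher in each IRF8KO library than in any WT library. Oligodendrocyte markers, of a cell rich in cholesterol synthesis, had 1 of 5 tested genes called, Cnp, lower (log2 fold change −2.04), at summed levels of 285 to 698 and 480 to 687 CPM. Of the 5, 3 had log2 fold changes above 0 and 2 below, with a median of 0.82. Mbp had 137, 44.0 and 274 CPM in WT and 545, 402 and 365 CPM in IRF8KO. It was not called (log2 fold change 1.53, adjusted p = 0.0556, edgeR QL F test, BH). None of the 10 monocyte and neutrophil markers passed the filter; their sum was 326 CPM in IRF8KO replicate 2 and at most 1.49 CPM elsewhere, and without that library the called members were Ch25h, Pmvk, Sqle and Srebf2. Of 10 microglia markers, all tested, 1 was called higher and 4 lower, at summed levels of 53309 to 100223 CPM in WT and 42123 to 60527 CPM in IRF8KO. Lymphocyte markers had 2 of 2 tested genes lower, at 519 to 859 CPM in WT and 29.7 to 40.9 CPM in IRF8KO. Endothelial markers had 1 of 2 lower, Pecam1, which passed the filter through WT alone, at summed levels of 18.9 to 32.5 and 7.38 to 12.1 CPM. Red blood cell markers had 0 of 5 called, at 0 to 57.5 and 53.8 to 437 CPM. The part of these other cells in the members' results was not tested.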

How the data were processed

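RNA from sorted microglia was made into cDNA with SMART-Seq v4 and tagged with Nextera XT, per the labels' protocols; such libraries carry neither strand information nor molecular identifiers, so intervals and floors cover counting error only. The authors deposited raw counts per gene in the layout of STAR: 4 summary lines, then a count that ignores strand and 2 stranded counts. The submitters' processing notes name bcl2fastq, STAR 2.5.2b, Picard 2.17.11, Subread, featureCounts and mm10; the annotation is not given in the sources used here. Of the 49585 identifiers, 49326 were matched to GENCODE M21 (GRCm38), used for symbols, positions, exonic length and GC content.

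The counts that ignore strand entered edgeR 4.0.16 under R 4.3.3 (filterByExpr with a minimum count of 10, TMM, quasi-likelihood F test, genotype as the single term) over 11041 genes. Called genes had an adjusted p (Benjamini-Hochberg) under 0.05. Standard errors came from the F statistic, and CPM are counts per 1000000 of the TMM-scaled library size. Summary lines stayed out of library sizes. Fits with DESeq2 1.42.0 and limma 3.58.1 and 15 other settings served as alternatives (17 in all), and the edgeR step was tested on simulated data. Libraries within a group differed beyond sampling noise (chi-square per degree of freedom at least 8.57).

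The members and lists were chosen with earlier results of these data known. All members are accounted for, with values by library for those called, the most abundant of each role and those whose call changed when 1 library was left out; from each other list the 2 smallest p-values in each direction among called genes are named. A further list, of SREBP processing, is not reported here. Motif letters were searched in RefSeq promoter windows (GRCm38.p6).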

Additional observations from a re-analysis of the deposited data

How the results depend on the processing

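The count of called members was 3, 8 and 9 with at least 10 counts in every library, DESeq2, and the offset for GC content and length (23.7%, 24.4% and 23.7% of all tested genes called), against 5 of 30, and 4 to 6 in the other alternatives that kept all libraries. Leaving out 1 library gave 1 to 10 called members and 910 to 4003 called genes against 2109, with the fewest without IRF8KO replicate 3 and the most without WT replicate 3. The replicate block gave 5 called members, with Ebp gained and Insig1 lost, and 2353 called genes. The deviations of same-numbered libraries from their group means correlated at −0.26, 0.33 and 0.11, and not every library correlated best with its own number. The departures of WT replicate 3 and IRF8KO replicate 2 along GC content enter these correlations. They cannot show whether same-numbered libraries were handled together, and the labels give only the number. Irf8 was called with library size alone, at −0.90, and ranged from −0.61 to −0.11 without 1 library. No called member changed sign. Among uncalled members, library size alone turned Acat2 to −0.14, Mvk to −0.19, Mvd to −0.37, Fdft1 to −0.30, Msmo1 to −0.29, Srebf1 to −0.16 and Scd2 to −0.095. The GC and length offset turned Mvd to −0.41, Nsdhl to 0.13, Hsd17b7 to 0.49 and Lipa to 0.63. The stranded columns turned Fdft1 to −0.32 and −0.41 and, with the first, Dhcr7 to 0.0009. Hsd17b7 turned to 0.37 with limma-voom and 0.12 with the replicate block. Without 1 library, Acat2 ranged from −0.018 to 0.66, Mvk from −0.049 to 0.61, Mvd from −0.16 to 0.49, Fdft1 from −0.043 to 0.43, Nsdhl from −0.26 to 0.067, Dhcr7 from −0.81 to 0.35 and Fasn from −0.63 to 0.35 (log2 fold changes). The causes were not tested. Members at a few counts per library, among them Idi1, Fdps, Scd1, Stard4 and Hsd17b7, are limited by depth.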

Other observations

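Of the 10 genes of isoprenoid synthesis and protein prenylation, side branches of the mevalonate route, 9 were tested, and their median log2 fold change was −0.16, beside −0.11 for all tested genes. Among the 5 electron donors to sterol enzymes (median −0.07), 1 was called, beside 19.1% of all tested genes. Cyb5r3, a cytochrome b5 reductase, rose from 74.9, 101 and 120 CPM to 253, 214 and 214 CPM, a log2 fold change of 1.20 (edgeR QL F test, BH-adjusted p = 0.0119, and 0.0547 to 0.0632 without WT replicate 1, WT replicate 2, IRF8KO replicate 1 or IRF8KO replicate 3), while Por, the reductase that feeds Cyp51 and Sqle, had a log2 fold change of −0.07 and was not called.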
